A study of Homo sapiens with 12 samples.

Results

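ATG12, AP3S1 and 8 genes of the core autophagy machinery (ATG5, ATG7, ATG3, ATG16L1, MAP1LC3B, GABARAPL1, ULK1 and SQSTM1) were followed in RNA-Seq libraries of HCT116 cells, a human colorectal carcinoma line. The 10 genes were taken by symbol from a table of 19901 genes. ATG12 and AP3S1 were chosen by their measured values, a serum response that differed between KAP1-depleted and control cells, so their values in the comparisons of serum and dTAG are a description with no test. The other 8 were added for their role in autophagy.

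All libraries came from a single clone in which both copies of TRIM28, the gene of the transcriptional regulator KAP1, carry a C-terminal FKBP12 degron and HA tag. The ligand dTAG-13 brings the tagged protein to the cereblon ubiquitin ligase, which marks it for degradation by the proteasome. Every culture was kept without serum for 48 h and received DMSO vehicle or dTAG for the last 8 h, and then either serum for 30 min or none. This gave 4 groups of 3 biological replicates: DMSO-S0 and DMSO-S30 (vehicle, without and with serum) and dTAG-S0 and dTAG-S30 (dTAG, without and with serum). No group was left growing in serum, and no group of untagged cells was analysed here.

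Total RNA was depleted of ribosomal RNA and mixed with ERCC spike-in RNAs, and reads were counted over whole genes, introns included. The libraries held 20537682 to 26278707 counts, of which 7.97 to 9.37% were ERCC. The ERCC share was 8.72 to 9.37% in the libraries without serum and 7.97 to 8.95% in those with serum. The epithelial markers EPCAM, CDH1, KRT8, KRT18 and KRT19 had at least 1606 counts in every library, whereas VIL1 had 1 to 7. Of 6 markers of other cells, 5 had at most 35 counts in any library. The sixth, COL1A1, brought the summed level of that list from 12.8 to 17.1 CPM (counts relative to the scaled library size) in the libraries without serum to 67.2 to 86.6 CPM in those with serum, while COL1A2 had 0 or 1 count; the part of this in the serum responses below was not tested. TRIM28 RNA was at 91.5 to 120 CPM in DMSO-treated and 85.5 to 117 CPM in dTAG-treated libraries, and since dTAG acts on the protein, RNA does not check the depletion. In bulk RNA, fewer cells with a transcript and less of it per cell cannot be told apart.

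Autophagy delivers cytoplasm and organelles to the lysosome in double-membraned vesicles, and starvation for nutrients or growth factors is its classic trigger. The ULK1 kinase starts the process. Ubiquitin-like conjugation reactions then build the vesicle: ATG7 and ATG10 join ATG12 to ATG5, and the ATG12-ATG5-ATG16L1 complex helps ATG7 and ATG3 attach the ATG8 proteins, such as MAP1LC3B and GABARAPL1, to lipid. SQSTM1 (p62) tethers ubiquitinated cargo to the ATG8 proteins. AP3S1 is not an autophagy protein: it is the small sigma subunit of AP-3, an adaptor complex that sorts cargo towards lysosomes and related organelles.

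ATG12 and AP3S1 are neighbours that start from the same stretch of DNA in opposite directions. In the coordinates of the table (hg38), ATG12 (ENSG00000145782.12) lies at chr5:115828200-115841858 on the minus strand and AP3S1 (ENSG00000177879.15) at chr5:115841481-115914081 on the plus strand. The intervals overlap by 378 bp, out of lengths of 13659 and 72601 bp. Whether reads were counted by strand is not given in the sources used here, so reads in those 378 bp may count for either gene. The GENCODE starts of the lowest-numbered transcript of each gene were at 115841837 for ATG12 and 115841935 for AP3S1. They leave 97 bases between them, which hold no GENCODE exon of either gene and are 74.2% G or C. Exons of other genes were not searched, and the intervals above reach into this segment. That segment is printed because it is the DNA both genes share upstream of those starts; it is the plus strand of GRCh38.p14, chr5:115841838-115841934, from the RefSeq promoter table, with 3 copies of the GC box CCGCCC in capitals.
ATG12-AP3S1 segment: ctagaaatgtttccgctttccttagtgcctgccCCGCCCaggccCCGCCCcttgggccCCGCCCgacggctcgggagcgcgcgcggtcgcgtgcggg

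The promoters of all 10 genes, from 250 bases before to 50 bases after each RefSeq start, were searched on both strands for 4 motifs and for the GC box, which was added after the segment had been read. The cAMP response element TGACGTCA was found in 1 of the 10 genes, GABARAPL1, and in 3.07% of 15297 genes with a promoter. It is shown here since GABARAPL1 had the largest serum response of the 10 genes; the capitals mark the element, which begins 30 bases before the start, in the plus strand of chr12:10212836-10212865.
GABARAPL1 promoter site: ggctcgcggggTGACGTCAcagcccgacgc
The E-box CACGTG was found in ATG3 alone of the 10 and in 10.9% of genes. The AP-1 motif TGANTCA (8.1% of genes) and the CArG box (1.73%) had no match in the windows of the 10. The GC box was in 65.1% of genes and in 9 of the 10, ATG12 being the exception. RefSeq starts ATG12 further inside the gene, at 115841565, so its window (chr5:115841516-115841815) ends before the segment printed above and includes none of its GC boxes, whereas 2 of the 3 windows of AP3S1 cover the whole segment. The CRE, AP-1, CArG and E-box letters do not occur in the segment between ATG12 and AP3S1. A match or its lack describes these windows, and its bearing on any response, that of GABARAPL1 included, was not tested.

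ATG12 rose with serum in DMSO-treated cells and did not rise in dTAG-treated cells. Its level was 70.9, 70.1 and 68.3 CPM in the 3 DMSO-S0 libraries and 89.7, 91.2 and 95.8 CPM in the 3 DMSO-S30 libraries. In dTAG-treated cells it was 70.7, 72.0 and 69.2 CPM without serum and 65.4, 65.2 and 62.6 CPM with serum. The 3 DMSO-S30 libraries thus stood above all 9 others, and the 3 dTAG-S30 libraries stood below all 9 others. The group means were 69.8 ± 1.3, 92.2 ± 3.2, 70.6 ± 1.4 and 64.4 ± 1.56 CPM (SD, n = 3 each) in that order, and only DMSO-S0 and dTAG-S0 overlapped.

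**Figure D1:**
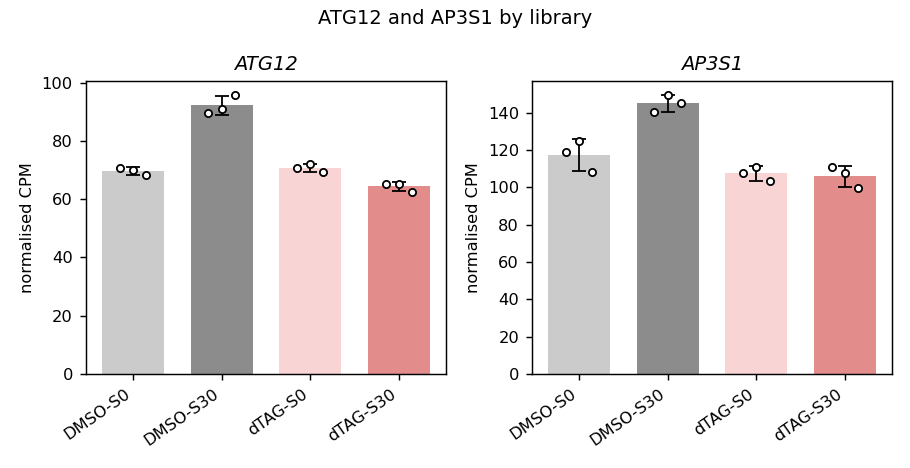
Level of ATG12 (left) and AP3S1 (right) in each library, in normalised CPM, by group. Points are single libraries, bars are group means and error bars are 1 SD (n = 3). The DMSO-S30 libraries, at 89.7 to 95.8 CPM for ATG12 and 140 to 149 CPM for AP3S1, lie above those of every other group.

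AP3S1 had the same high group. It was at 119, 125 and 108 CPM in DMSO-S0 and at 140, 149 and 145 CPM in DMSO-S30, so those groups did not overlap. In dTAG-S0 it was at 108, 111 and 104 CPM and in dTAG-S30 at 111, 108 and 99.7 CPM. The DMSO-S30 libraries stood above all 9 others, and the other 3 groups overlapped one another. Group means were 117 ± 8.5, 145 ± 4.53, 107 ± 3.82 and 106 ± 5.67 CPM (SD, n = 3 each) in the same order.

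On the log2 scale of the fit, the serum response of ATG12 was 0.41 (SE 0.06) in DMSO-treated and -0.13 (SE 0.06) in dTAG-treated cells, and that of AP3S1 was 0.31 (SE 0.06) and -0.02 (SE 0.06). The sign of the last value was not stable, being positive in 5 of 21 alternative fits. Between treatments, ATG12 differed by 0.02 (SE 0.06) without serum and by -0.52 (SE 0.06) with serum, a level 0.697 times that of DMSO-S30. AP3S1 differed by -0.13 (SE 0.06) without serum and by -0.45 (SE 0.06) with serum, or 0.731 times. The difference between both serum responses was -0.54 (SE 0.08) for ATG12 and -0.33 (SE 0.09) for AP3S1. With TMM in place of upper-quartile scaling, the serum response of ATG12 was 0.48 in DMSO-treated and -0.08 in dTAG-treated cells. That of AP3S1 in DMSO-treated cells was 0.38 with TMM scaling and 0.21 without DMSO-S0 replicate 3. Since the pair was selected on these responses, its ranks only describe it. Ordered from the lowest log2 value among 13093 genes, ATG12 was number 198 and AP3S1 number 284 for the dTAG effect with serum. For the difference between serum responses they were numbers 231 and 537.

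Averaged over both treatments, the serum response was 0.14 (SE 0.04) for ATG12 and 0.14 (SE 0.04) for AP3S1, which is the mean of 2 unlike responses and describes neither treatment. It contains the known DMSO-S30 values and so is also given with no test. Without DMSO-S0 replicate 3 it was 0.09 for AP3S1.

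The ratio of ATG12 to AP3S1 counts was 0.597 ± 0.035 in DMSO-S0, 0.637 ± 0.024 in DMSO-S30, 0.658 ± 0.010 in dTAG-S0 and 0.608 ± 0.019 in dTAG-S30 (SD, n = 3 each). The dTAG-S0 libraries (0.6478 to 0.6685) lay above those of DMSO-S0 (0.5621 to 0.6329) and dTAG-S30 (0.5904 to 0.628). They overlapped those of DMSO-S30 (0.6109 to 0.6591). Over the 12 libraries the log2 CPM of the pair had a Pearson r of 0.932, and of all 13092 other genes tested AP3S1 was the one most like ATG12. Both genes were chosen for the same pattern over the 4 groups, so this likeness restates the choice. After the group means were removed, r was 0.668, and AP3S1 was then number 313 in likeness to ATG12 and ATG12 number 944 in likeness to AP3S1. The 12 libraries also share depth and processing.

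Among the genes most like ATG12 after AP3S1 were PRKRA (r = 0.926), EPM2AIP1 (0.893), TAF7 (0.866) and EMCN (0.86), and those most like AP3S1 were AGPAT5 (0.955), TAF7 (0.95), ATG12, EPM2AIP1 (0.931) and PRKRA (0.904). AGPAT5, an acyltransferase of phosphatidic acid synthesis, was at 283 ± 20.4 and 315 ± 3.22 CPM in DMSO-S0 and DMSO-S30 and at 252 ± 5.28 and 246 ± 17.0 CPM in the matching dTAG groups (SD, n = 3 each). PRKRA, an activator of the kinase PKR, was at 59.5 ± 1.07, 66.4 ± 1.49, 60.2 ± 0.84 and 60.1 ± 1.78 CPM in the same order. EMCN was close to 1 CPM throughout, and at such low counts its r carries little. After the group means were removed, PRKRA had an r of 0.916 with ATG12 and was number 2 in likeness to it. That r was 0.692 for TAF7, 0.567 for EPM2AIP1 and 0.381 for EMCN. These 5 genes also had their highest mean in DMSO-S30, which restates their choice by likeness to the pair. Except for EMCN, their serum response in DMSO-treated cells and their dTAG effect with serum were smaller than those of ATG12. EPM2AIP1 was close to AP3S1, at 0.29 (SE 0.08) for serum in DMSO-treated cells and -0.44 (SE 0.08) for dTAG with serum. The AP3S1 values were 0.31 and -0.45. The difference between serum responses was -0.36 (SE 0.11) for EPM2AIP1 and -0.33 (SE 0.09) for AP3S1. The other 8 autophagy genes, which were not chosen for this pattern, had an r of -0.21 to 0.39 with ATG12 and of -0.18 to 0.45 with AP3S1.

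The genes on either side of the pair were mostly low. On the ATG12 side, CDO1, 11.2 kb away, had 0 to 7 counts and TMED7 0 to 3, and both fell below the count filter. TMED7-TICAM2, a readthrough gene whose interval overlaps that of TMED7, so that shared reads are uncertain, fell with serum in dTAG-treated cells (log2 -0.40, SE 0.11, edgeR adjusted p 0.00689). On the AP3S1 side, LVRN had 12 to 34 counts and did not pass in either treatment, but its fall passed when the serum responses were averaged (log2 -0.65, SE 0.23, edgeR adjusted p 0.0211). ARL14EPL, 118.2 kb from the pair, rose with serum in DMSO-treated (log2 0.94, SE 0.15, edgeR adjusted p 2.87e-05) and dTAG-treated cells (log2 0.58, SE 0.15, adjusted p 0.00502), and its value for dTAG with serum was -0.49 (SE 0.14, adjusted p 0.0982). COMMD10, 170.9 kb away with 2141 to 2984 counts, passed in no comparison.

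Per kilobase of the counted gene, introns included, SQSTM1 had the highest level of the 10 genes over all 12 libraries, 6.75 ± 0.65 CPM per kb (SD, n = 12). ATG12 followed with 5.44 ± 0.82, GABARAPL1 with 3.79 ± 1.0 and MAP1LC3B with 2.85 ± 0.37 CPM per kb. ATG3 was at 2.02 ± 0.09, AP3S1 at 1.64 ± 0.24, ATG16L1 at 1.31 ± 0.13 and ULK1 at 0.909 ± 0.054 CPM per kb. ATG5, at 0.42 ± 0.04, and ATG7, at 0.278 ± 0.029 CPM per kb, came last and are the longest of the 10 genes, at 280369 and 285357 bp. The ranges over libraries overlapped between neighbours in this order except between MAP1LC3B and ATG3, ATG16L1 and ULK1, ULK1 and ATG5, and ATG5 and ATG7. All 10 genes passed the count filter, with the lowest count, 470, in ULK1.

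Of the other 8 genes, GABARAPL1, MAP1LC3B and SQSTM1 rose with serum in both DMSO-treated and dTAG-treated cells. Among all genes, 9.39% were called higher and 17.9% lower with serum in DMSO-treated cells, and 9.31% higher and 16.2% lower in dTAG-treated cells. The split depended on the scaling, since 34.4% and 36.4% of the calls were rises in the respective treatments but 61.3% and 61.8% with TMM scaling. With library sizes from the ERCC counts, rises were 66.5% and 62.5%. GABARAPL1 and MAP1LC3B encode ATG8 proteins, which mark the autophagosome membrane.

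GABARAPL1 (chr12:10212458-10223130) was at 33.3, 31.0 and 29.1 CPM in DMSO-S0 and 48.9, 54.4 and 51.1 CPM in DMSO-S30. In dTAG-treated cells it was at 29.7, 27.1 and 32.9 CPM without serum and 52.6, 47.8 and 47.1 CPM with serum. All 6 libraries with serum were above all 6 without. The log2 response was 0.75 (SE 0.08, edgeR adjusted p 3.42e-08) in DMSO-treated and 0.71 (SE 0.08, adjusted p 3.76e-08) in dTAG-treated cells, 1.68- and 1.64-fold.

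MAP1LC3B (chr16:87383995-87404779) was at 50.4, 50.6 and 49.7 CPM in DMSO-S0 and 64.5, 65.8 and 63.5 CPM in DMSO-S30. With dTAG it was at 52.3, 52.8 and 58.0 CPM without serum and 64.0, 71.0 and 67.2 CPM with serum. Here too the 6 libraries with serum lay above the 6 without. The log2 response was 0.38 (SE 0.06, edgeR adjusted p 5.43e-05) in DMSO-treated and 0.30 (SE 0.06, adjusted p 0.000549) in dTAG-treated cells. The annotated gene overlaps FBXO31, on the other strand, by 8148 bp, so reads there may count for either. Other large overlaps with a protein-coding gene on the other strand among the 10 were those of ATG5 with PRDM1, 64517 bp, and of SQSTM1 with MRNIP, 2946 bp.

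SQSTM1 (chr5:179806398-179838078) was at 197, 181 and 189 CPM in DMSO-S0 and 222, 215 and 219 CPM in DMSO-S30. In dTAG-S0 it was at 213, 199 and 216 CPM and in dTAG-S30 at 221, 239 and 256 CPM. Serum raised it within each treatment, but dTAG-S0 and DMSO-S30 overlapped. The log2 response was 0.24 (SE 0.06, edgeR adjusted p 0.00383) in DMSO-treated and 0.17 (SE 0.06, adjusted p 0.0274) in dTAG-treated cells. This second call was lost when replicate 2 of dTAG-S0 (0.13, adjusted p 0.144) or of dTAG-S30 (0.17, adjusted p 0.0613) was left out.

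**Figure D2:**
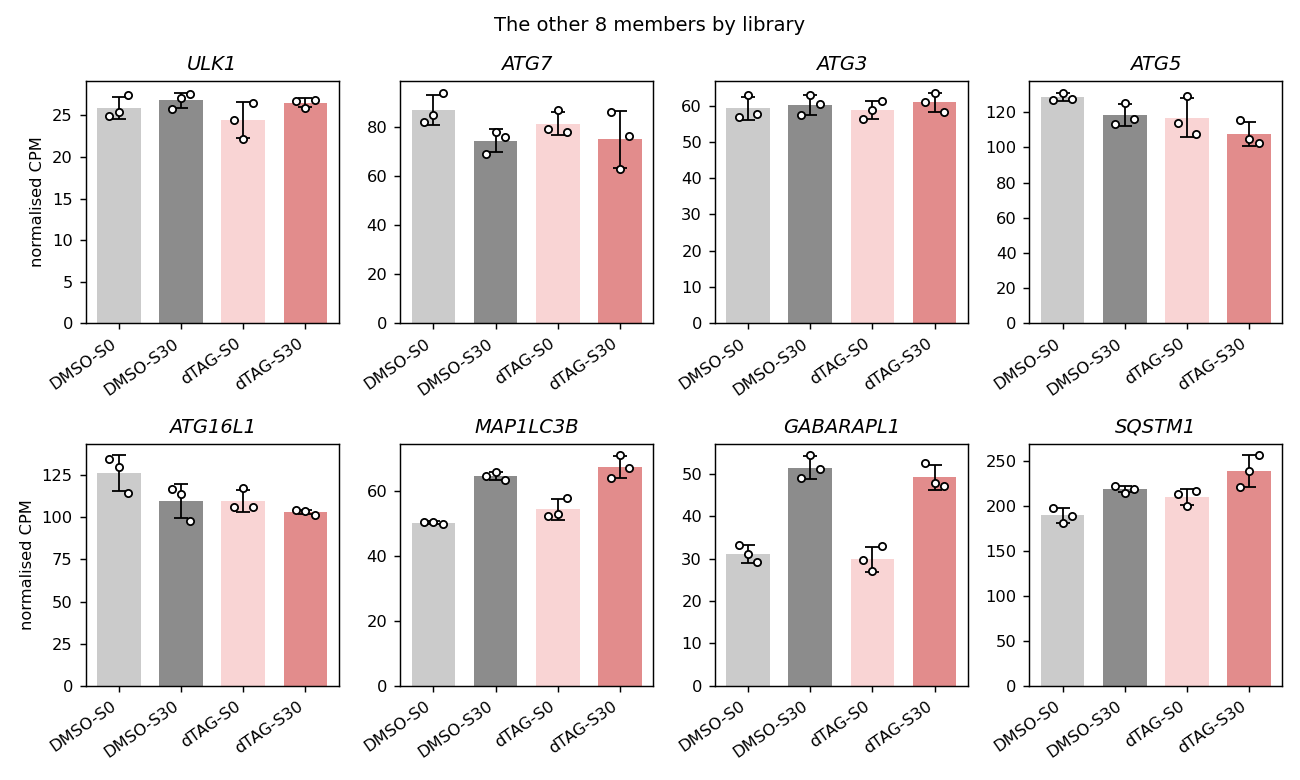
Level of the other 8 genes in each library, in normalised CPM, by group. Points are single libraries, bars are group means and error bars are 1 SD (n = 3). GABARAPL1 and MAP1LC3B were higher in all 6 libraries with serum than in all 6 without, whereas ULK1 and ATG3 kept overlapping ranges.

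ATG5, ATG7, ATG3 and ATG16L1, which belong to the conjugation machinery, had log2 serum responses between -0.26 and 0.05. Further genes of that machinery, such as ATG4C and ATG10, are given below. ATG7, the E1-like enzyme, was at 81.9, 84.6 and 93.8 CPM in DMSO-S0 and 69.0, 77.8 and 75.9 CPM in DMSO-S30, and its fall passed the test (log2 -0.26, SE 0.08, edgeR adjusted p 0.0198). In dTAG-treated cells it was at 79.1, 86.8 and 77.9 CPM without serum and 85.9, 62.8 and 76.0 CPM with serum, and the response of -0.10 (SE 0.08) did not pass (adjusted p 0.36). Those dTAG-treated libraries overlapped widely, and the value was 0.00 without dTAG-S30 replicate 2 but passed at -0.18, -0.23 and -0.25 without DMSO-S0 replicate 1, dTAG-S30 replicate 1 and dTAG-S30 replicate 3.

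ATG16L1 was at 135, 130 and 114 CPM in DMSO-S0 and 117, 114 and 97.9 CPM in DMSO-S30. These groups overlapped, and the fall of -0.19 (SE 0.07) was just past the threshold (edgeR adjusted p 0.0495) and was lost on leaving out any 1 of 5 libraries, DMSO-S0 replicates 1 and 2, DMSO-S30 replicates 2 and 3 and dTAG-S30 replicate 2 (values of -0.21 to -0.10). In dTAG-treated cells the value was -0.10 (SE 0.07, adjusted p 0.304). Both falls depended on the scaling of the libraries: with TMM in place of upper-quartile scaling, ATG7 was at -0.18 (adjusted p 0.136) and ATG16L1 at -0.12 (adjusted p 0.263) in DMSO-treated cells.

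ATG5, the partner of ATG12, was at 127, 131 and 128 CPM in DMSO-S0 and at 114, 125 and 116 CPM in DMSO-S30. The log2 value was -0.13 (SE 0.07, edgeR adjusted p 0.152), and in dTAG-treated cells -0.11 (SE 0.06, adjusted p 0.203). ATG3, the E2-like enzyme for ATG8 proteins, was between 56.2 and 63.6 CPM in all 12 libraries, with serum values of 0.02 (95% interval -0.11 to 0.16) and 0.05 (-0.08 to 0.18). ULK1 lay between 22.2 and 27.6 CPM, with 0.04 (-0.12 to 0.20) and 0.12 (-0.03 to 0.28) in DMSO-treated and dTAG-treated cells.

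Averaged over both treatments, 13.5% of all genes were called higher and 30.6% lower with serum, and rises were 30.6% of the calls but 54.8% with TMM scaling. Of the 8 genes, GABARAPL1, MAP1LC3B and SQSTM1 were called higher, and ATG5 (-0.12, SE 0.05, edgeR adjusted p 0.0315), ATG7 (-0.18, SE 0.06, adjusted p 0.0103) and ATG16L1 (-0.14, SE 0.05, adjusted p 0.0172) lower. These 3 falls did not pass with TMM scaling (adjusted p 0.401, 0.147 and 0.215), where ULK1 was called higher (0.15, adjusted p 0.0323). They were also lost on leaving out single libraries: ATG5 without DMSO-S30 replicate 3, dTAG-S0 replicate 2 or dTAG-S30 replicate 2 (-0.11 to -0.08), ATG7 without dTAG-S30 replicate 2 (-0.12) and ATG16L1 without DMSO-S0 replicate 1, DMSO-S30 replicate 3 or dTAG-S30 replicate 3 (-0.12 to -0.10).

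KAP1 depletion gave no called change in any of the other 8 genes. Without serum 0.962% of all genes were called higher and 0.512% lower in dTAG-treated than in DMSO-treated cells, and with serum 0.611% and 0.642%. With calls this rare, a count of 0 among 8 genes is near the background, and DESeq2 also called 0 in either comparison. Without serum the largest of the 8 values were -0.19 for ATG16L1 (SE 0.07, edgeR adjusted p 0.202) and 0.17 for SQSTM1 (SE 0.06, adjusted p 0.184). SQSTM1 and MAP1LC3B were higher in all 3 dTAG-S0 than in all 3 DMSO-S0 libraries, by 0.17 and 0.12 (SE 0.06, adjusted p 0.427). Neither was called, and the share of all genes that separate in this way was not counted, so this does not mark these genes. At unadjusted p, ATG5 (0.0349), ATG16L1 (0.00953) and SQSTM1 (0.00768) were under 0.05 of the 8, as were 12.2% of all genes. With serum all 8 overlapped between treatments, and the share of all genes that separate there was not counted either. Their values were -0.13 (ATG5) to 0.10 (SQSTM1). None had an unadjusted p under 0.05, beside 10.5% of all genes. Of the 8, ATG16L1 alone passed without serum in any alternative, when DMSO-S0 replicate 3 was left out (log2 -0.27, adjusted p 0.0265).

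**Figure D3:**
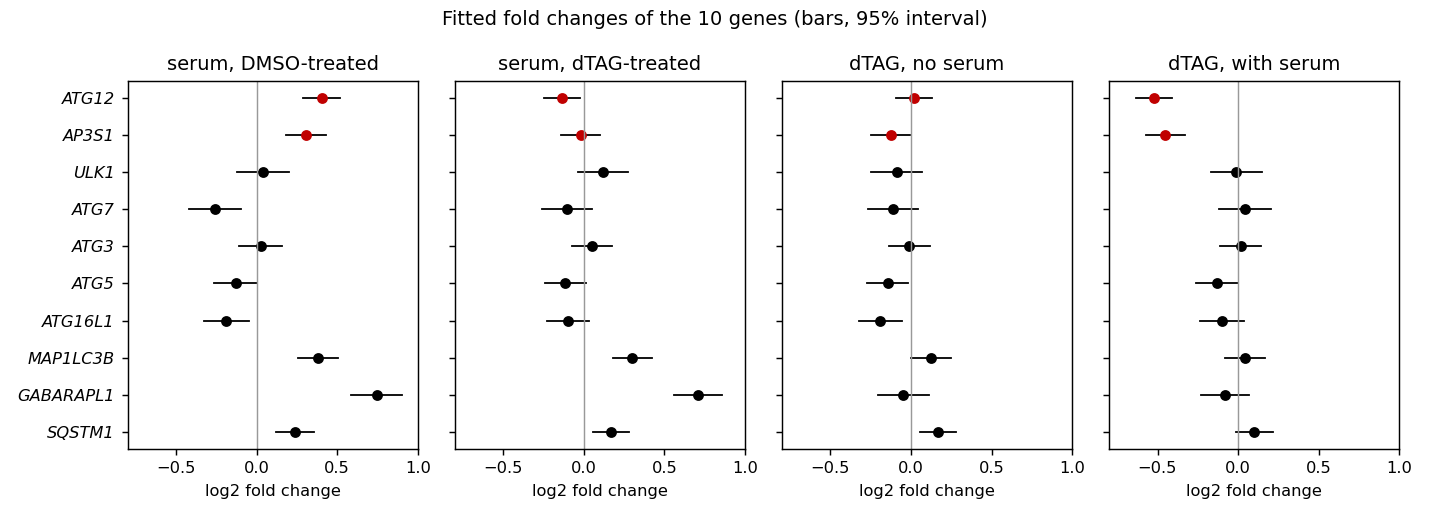
Fitted log2 fold change (points) with 95% interval (lines) of the 10 genes in 4 comparisons: serum against none in DMSO-treated and dTAG-treated cells, and dTAG against DMSO without and with serum. ATG12 and AP3S1 (red), at -0.52 and -0.45, stand apart from the other 8 (black) in the last panel, a separation that the choice of the pair fixed.

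The test of the difference between serum responses called 0% of all genes higher and 0.0458% lower in dTAG-treated cells, which is 6 genes, with 439 at an unadjusted p under 0.05. None of the 8 genes was among them, and their differences ran from -0.08 (MAP1LC3B) to 0.16 (ATG7), each with an edgeR adjusted p of 1.0 after rounding and none with an unadjusted p under 0.05. For GABARAPL1 the 95% interval of the difference was -0.26 to 0.18, against a serum response of 0.75. For SQSTM1 it was -0.23 to 0.10, which includes a difference as large as its response in dTAG-treated cells, so a like response in both treatments was not shown.

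Around the 10 genes, 8 lists of autophagy and AP-3 genes gave 57 further genes with enough counts. With serum 6 of the 57 (10.5%) were called higher and 12 (21.1%) lower in DMSO-treated cells, near the 9.39% and 17.9% of all genes, with a median log2 value of -0.05 beside -0.07 for all genes tested. In dTAG-treated cells 8 (14.0%) were higher and 8 (14.0%) lower, beside 9.31% and 16.2% of all genes, with a median of -0.08 beside -0.06. The counts of falls were not stable: with TMM scaling 4 fell in DMSO-treated and 3 in dTAG-treated cells, beside 8 that rose in each, and leaving out 1 library gave 5 (without dTAG-S0 replicate 2 or DMSO-S30 replicate 3) to 13 (without DMSO-S0 replicate 1) falls in dTAG-treated cells.

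VMP1, an endoplasmic reticulum protein needed to form autophagosomes, had the largest response of the lists. It went from 463 ± 19.1 to 1482 ± 7.16 CPM with serum in DMSO-treated cells and from 435 ± 16.7 to 1267 ± 58.7 CPM in dTAG-treated cells (SD, n = 3 each). The log2 response was 1.67 (SE 0.06, edgeR adjusted p 5.21e-18) and 1.54 (SE 0.06, adjusted p 1.21e-17). The gene of the microRNA miR-21, MIR21, lies within VMP1 on the same strand, so transcripts of either count as VMP1. RUBCN, which restrains the PI3-kinase complex of autophagy, went from 42.0 ± 2.3 to 85.5 ± 5.1 CPM and from 41.7 ± 3.03 to 84.5 ± 4.26 CPM, log2 responses of 1.01 (SE 0.07, adjusted p 5.91e-12) and 1.03 (SE 0.07, adjusted p 1.52e-12). It overlaps FYTTD1, on the other strand, by 12549 bp. RUBCN was the sole gene to rise of 8 in the PI3-kinase complex. In DMSO-treated cells 3 (37.5%) fell, beside 17.9% of all genes, and in dTAG-treated cells 2 (25%), beside 16.2%. PIK3C3 was at -0.26 and -0.20 (edgeR adjusted p 0.00272 and 0.0127) and ATG14 at -0.255 and -0.28 (0.00847 and 0.00306). UVRAG was at -0.23 in DMSO-treated cells (0.0125). With TMM scaling the falls of ATG14 and UVRAG in DMSO-treated cells did not pass (adjusted p 0.0657 and 0.147).

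Of 9 genes of membrane supply, VMP1 included, 4 rose and 2 fell with serum in DMSO-treated cells and 5 rose and 1 fell in dTAG-treated cells. Of 5 genes of the ULK complex, 1 rose and 1 fell in each. Among all genes 9.39% were called higher and 17.9% lower in DMSO-treated cells, and 9.31% and 16.2% in dTAG-treated cells. WIPI1, which binds the lipid made by the PI3-kinase, rose by log2 0.54 (SE 0.09, edgeR adjusted p 4.13e-05) in DMSO-treated and 0.40 (SE 0.08, adjusted p 0.000731) in dTAG-treated cells. ATG101, of the ULK complex, rose by 0.51 and 0.35 (SE 0.08, adjusted p 0.00154 for the latter). TMEM41B, a lipid scramblase, rose by 0.37 and 0.25. The last call was lost without dTAG-S30 replicate 1 (0.17, adjusted p 0.0552). The falls were those of ATG2B, a lipid transfer protein, at -0.25 and -0.22 (SE 0.08, adjusted p 0.0225 and 0.0425), of WDR45 in DMSO-treated cells (-0.25, SE 0.09, adjusted p 0.0365) and of RB1CC1, the scaffold of the ULK complex, at -0.17 and -0.16 (SE 0.06, adjusted p 0.0373 and 0.0347). With TMM scaling none of these falls passed (adjusted p of 0.141 and 0.207 for ATG2B, 0.177 for WDR45 and 0.337 and 0.284 for RB1CC1). Leaving out any 1 of several libraries also lost them: in DMSO-treated cells DMSO-S0 replicate 3 or DMSO-S30 replicate 1 for WDR45, and DMSO-S30 replicate 2 or 3 or dTAG-S30 replicate 1 or 2 for RB1CC1. In dTAG-treated cells they were DMSO-S30 replicate 3, dTAG-S0 replicate 2 or dTAG-S30 replicate 2 for both genes called there, and for ATG2B also dTAG-S30 replicate 3.

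Of 11 genes of the conjugation machinery, 4 (36.4%) fell in DMSO-treated and 1 (9.09%) in dTAG-treated cells, beside 17.9% and 16.2% of all genes. With TMM scaling the falls of ATG7 and ATG16L1 in DMSO-treated cells did not pass, as given above. ATG12 was chosen by its values and is given no test, and none of the other genes of this list was called higher. Among the falls, ATG4C, a protease that processes ATG8 proteins, was at -0.37 (SE 0.08, edgeR adjusted p 0.00101) and -0.41 (SE 0.08, adjusted p 0.000261) in DMSO-treated and dTAG-treated cells. ATG10 was at -0.24 (SE 0.08, adjusted p 0.0284) in DMSO-treated cells, but did not pass with TMM scaling (-0.16, adjusted p 0.1985). TFEB, a transcription factor for lysosomal and autophagy genes, was at -0.71 (SE 0.18, adjusted p 0.00424) in DMSO-treated cells, but at -0.52 (adjusted p 0.0548) without DMSO-S30 replicate 2. Of the 7 AP-3 genes 1 (14.3%) fell in each treatment, beside 17.9% and 16.2% of all genes. It was AP3M2, a mu subunit, with log2 values of -0.32 (SE 0.08, edgeR adjusted p 0.00239) and -0.33 (SE 0.07, adjusted p 0.00158). AP3D1, the delta subunit, rose in dTAG-treated cells by 0.18 (SE 0.06, adjusted p 0.0293), a call lost without dTAG-S0 replicate 2 (0.14), dTAG-S30 replicate 2 (0.17) or dTAG-S30 replicate 3 (0.17). None of the other AP-3 genes was called for dTAG with serum, the comparison that chose AP3S1.

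By the edgeR test, KAP1 depletion gave no called gene among the 57, without or with serum, nor did the difference between serum responses, while 5, 4 and 0 of them had an unadjusted p under 0.05, beside 12.2%, 10.5% and 3.35% of all genes. DESeq2 called 0 without serum, 1 with serum (VMP1) and 0 for the difference. The median of the 57 was 0.00 for dTAG with serum, beside 0.00 for all genes tested. The value nearest to a call was that of VMP1 with serum, -0.22 (SE 0.06, edgeR adjusted p 0.0735), which was 1267 against 1482 CPM. It did pass in 10 of 21 alternative fits, among them DESeq2 (-0.23, adjusted p 0.000525), the likelihood ratio test and the fits without 1 of the 3 DMSO-S0 libraries or without dTAG-S30 replicate 1. Without serum WIPI1 passed in the fit that left out dTAG-S0 replicate 2 (0.33, adjusted p 0.0417).

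**Figure D4:**
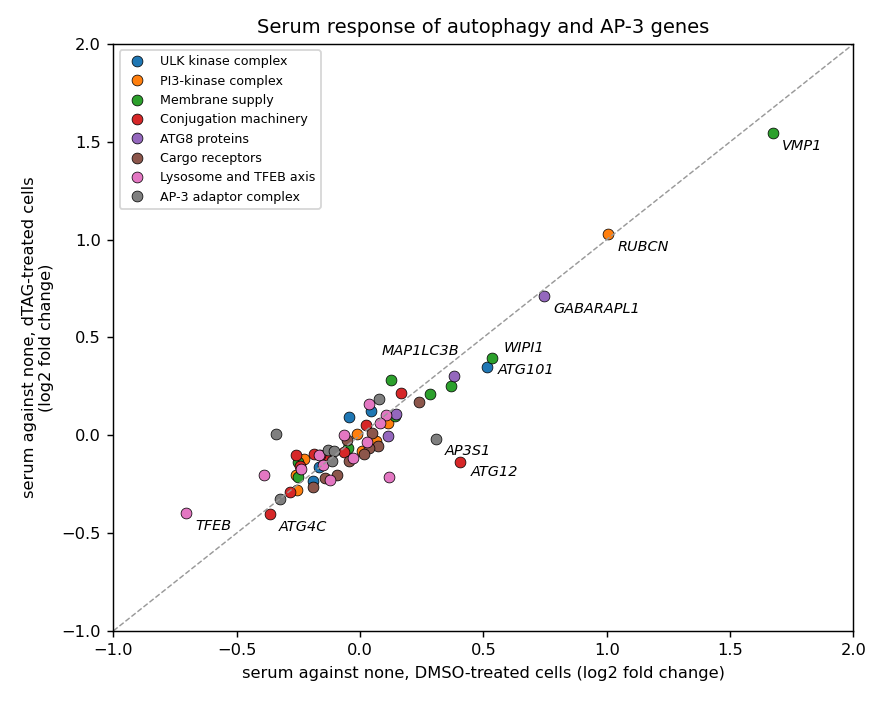
Log2 fold change for serum in DMSO-treated cells (horizontal) against dTAG-treated cells (vertical) for the 67 tested genes of 8 autophagy and AP-3 lists, coloured by list, with the line of equal response dashed. VMP1, RUBCN and GABARAPL1 lie near the line, and ATG12 (0.41, -0.13) and AP3S1 (0.31, -0.02), the pair selected on this difference, lie below it.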

How the data were processed

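The authors trimmed reads with Trim Galore 0.6.4 after FastQC 0.11.8, aligned them to hg38 with STAR and counted them with featureCounts of Subread 1.6.3 over entire protein-coding genes, introns included. The deposited table holds these counts as they were, not normalised, for genes and ERCC transcripts. The use of strand is not given in the sources used here. Genes were kept where 6 or more libraries had 10 or more counts (13093 tested, 6808 left out). Counts were scaled by upper quartile, 1 factor of unwanted variation was estimated from 69 ERCC transcripts (the RUVg method), and all 12 libraries were fitted with edgeR 4.0.16 (R 4.3.3; quasi-likelihood F-test, two-sided, Benjamini-Hochberg over all genes tested, threshold 0.05). CPM are counts relative to these scaled library sizes. Correlations were taken on log2 CPM (prior count 2).

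The genes and lists were chosen with earlier results of these data known, so no p is given for ATG12 and AP3S1, and none over a list. Named genes were the 10 genes, 3 neighbours on each side of the pair, the 5 genes most like each of ATG12 and AP3S1, and list genes past the threshold with the largest changes (some are given only as counts). Motifs were searched in RefSeq promoters of GRCh38.p14, which all 10 genes matched. The fit was tested on simulated data. Replicates had a Spearman rho of 0.996 to 0.998 across genes and differed by more than counting noise (chi-square per degree of freedom of 3.03 to 9.82). Alternatives were TMM and ERCC scaling, no or 2 ERCC factors, no count filter, the likelihood ratio test, DESeq2 1.42.0, a replicate block, only the groups compared, and leaving out each library.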

Additional observations from a re-analysis of the deposited data

Results flagged for a closer look

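The serum response of ATG12 differed between treatments by -0.54 on the log2 scale (dTAG-treated minus DMSO-treated, SE 0.08), which drew attention as a difference between groups under the same contrast. All 3 DMSO-S30 libraries were above all DMSO-S0 libraries, and all 3 dTAG-S30 libraries were below all dTAG-S0 libraries. The gene was chosen with this value known, so it is not independent evidence. Leaving out each library in turn gave -0.57 to -0.51.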

How the results depend on the processing

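With library sizes from the ERCC counts, calls went from 3575 to 1766 for serum in DMSO-treated cells, from 3346 to 1646 for serum in dTAG-treated cells, from 5766 to 3428 for the averaged serum response, from 193 to 76 for dTAG without serum, from 164 to 66 for dTAG with serum and from 6 to 3 for the difference between serum responses. Without a count filter, dTAG gave 310 and 286 calls without and with serum, and the difference gave 24. The likelihood ratio test gave 310, 278 and 15 in the same order. DESeq2 gave 298 calls for dTAG with serum and 22 for the difference, and a fit of only the groups compared gave 324 for dTAG with serum. Leaving out 1 library gave 111 (without dTAG-S0 replicate 3) to 312 (without dTAG-S30 replicate 3) calls for dTAG without serum, 99 (without DMSO-S30 replicate 2) to 267 (without DMSO-S0 replicate 1) for dTAG with serum and 5 to 14 for the difference, where the fit pools the spread over all groups. Replicate numbers did not pair the libraries: deviations of same-numbered libraries had an r of -0.15 to 0.14, and 5 of 12 libraries were most like one of their own number. With the replicate number as a block, calls were 3665, 3451, 205, 181 and 7 for serum in DMSO-treated and dTAG-treated cells, dTAG without and with serum and the difference. No called value of the 10 genes changed sign in the alternatives, and the cause of the other changes was not tested. The 10 genes had at least 470 counts in every library, and the effect of depth on their calls was not tested.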
